A study of Gallus gallus with 21 samples.

Results

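The genes described are the splicing and RNA-binding factors of the chicken whose symbols begin with HNRN, SRSF, SF3, SNRP, PRPF, RBM and a digit, CELF, RBFOX, NOVA or ELAVL. Probe sets with 1 annotated gene were taken, which gave 188 of 19874 probe sets and 81 of 9774 genes. They are 12 hnRNP genes, 10 SR genes, 7 SF3 genes, 9 snRNP genes, 8 PRPF genes, 26 RBM genes, 3 CELF genes, 3 ELAVL genes, 2 RBFOX genes and NOVA1. Their RNA was measured in brain, heart and left gonad of White Leghorn chicken embryos after 18 days of incubation, from 4 female and 4 male embryos with no treatment. Brain and heart had 4 female and 3 male arrays each, and gonads had 3 female arrays (ovary) and 4 male arrays (testis), 21 arrays in all. Brain RNA came mainly from the diencephalon, without hemispheres, optic lobes or cerebellum, and heart RNA from the apex. Embryos were sexed by eye, and an embryo is named here by its number in the sample titles. Where a gene had several probe sets, the one with the highest mean over all arrays stands for it, and all levels are log2 signals of that probe set.

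Most pre-messenger RNA is cut and joined by the spliceosome. Its small nuclear ribonucleoproteins (snRNPs) carry the SNRP proteins, SF3A and SF3B are parts of the U2 snRNP that holds the branch site, and the PRPF proteins serve the tri-snRNP and the catalytic core. SR proteins (SRSF) bind exons and generally favour their use, whereas hnRNP proteins coat nascent RNA and often act against splice site choice. On top of this machinery lie regulators that are limited to few tissues. From work in mammals, NOVA and the ELAVL proteins other than ELAVL1 are known for neurons, RBFOX and CELF for brain and muscle, RBM20, RBM24 and RBM38 for striated muscle, and RBM46 for germ cells. In birds females are ZW and males ZZ, and most Z-linked genes are not fully balanced between the sexes. Of the 81 genes, 78 are autosomal, ELAVL2 and CELF4 are Z-linked and HNRNPKL is W-linked.

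The labels of tissue and sex were checked on marker genes. The mean log2 signal of the neuron genes with values was 11.8 to 12.4 in the brain arrays, that of heart muscle genes was 14.7 to 14.8 in the heart arrays, and ovary genes (CYP19A1, FOXL2, HSD17B1, FST) were at 9.14 to 9.52 in ovaries and 2.86 to 3.09 in testes. Testis genes (SOX9, AMH, DMRT1, INHA, CLDN11) were at 11.4 to 11.9 in testes and 7.45 to 7.75 in ovaries. These values are list means, and FST and DMRT1 added little to the separation. FST overlapped between the sexes, at 4.23 to 4.94 in ovaries and 4.69 to 5.6 in testes. DMRT1 was slightly higher in testes, at 13.7 to 13.91 against 13.33 to 13.55 in ovaries. The other genes of both lists did not overlap. Neuron genes (4 of 8 with values in gonads) were higher in the ovaries of embryos 2 and 12, at 7.68 and 6.83, than in that of embryo 20, at 4.90, or in testes, at 4.40 to 4.89. The mean of chromaffin genes (4 of 5 with values) was split likewise. Among ovaries it was 5.40 (embryo 2), 8.01 (embryo 12) and 3.63 (embryo 20), against 2.74 to 3.28 in testes. Single genes departed from these list means. The neuron gene NEFL was at 6.31 (embryo 2), 6.09 (embryo 12) and 6.15 (embryo 20) in ovaries and 6.24 to 7.15 in testes. The chromaffin gene CHGB was at 3.6 (embryo 2), 6.19 (embryo 12) and 4.18 (embryo 20) in ovaries. Because of the split of the means, comparisons with ovaries were also run with the ovary of embryo 20 alone. That leaves 1 array in the group, so the spread comes from the other groups and the lone ovary is assumed to vary like them, and a call lost there can be lost through the smaller number. The ovary of embryo 20 was not free of other markers. The kidney gene UMOD was at 7.37 (embryo 2), 7.54 (embryo 12) and 7.53 (embryo 20) in ovaries and 2.33 to 2.97 in testes, and the mean of the list for adrenal cortex and kidney (4 of 7 with values) was 7.38 to 7.78 in ovaries and 5.67 to 6.21 in testes. Only UMOD of that list separated the sexes. CYP11A1 was at 12.26 to 12.51 in ovaries and 12.32 to 12.43 in testes, and CUBN and LRP2 overlapped as well. FABP7, the 1 glial gene of 6 with gonad values, was at 10.03, 9.53 and 8.003 in ovaries and 5.197 to 6.48 in testes. Red cell genes (3 of 7 with values) were at 11.05, 10.79 and 9.99 in ovaries and 8.80 to 9.93 in testes. The part of these tissues in the differences below was not tested. Heart muscle genes (3 of 8 with values) were at 6.31 to 6.98 in testes and 3.54 to 4.12 in ovaries. In brain, 1 heart muscle gene had values, and it was at 7.38 in female embryo 12 and 5.94 in female embryo 2 against 3.17 to 4.84 in the other arrays.

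For each probe set a tissue either has values on all of its arrays or is blank on all of them. The authors filtered probe sets on expression in each tissue. In every tissue the paper counts more probe sets past this filter than have values here. What left the others blank was not tested, and a blank was not read as absence. Among probe sets at 10 or more in both other tissues, 7.45% were blank in brain and 6.73% in gonads, but 0.299% in heart. Of the 81 genes, 58 had values in every tissue through the probe set that stands for them, and 71 through any probe set. The probe set that stands for the SR gene SRSF6 was blank in brain although it was at 12.93 to 13.94 on all heart and gonad arrays, and a second probe set of the gene had brain values of 12.36 to 13.00. The probe set of HNRNPU, also known as scaffold attachment factor A, was likewise blank in gonads and at 12.02 to 12.42 on all brain and heart arrays, while other probe sets of that gene had gonad values.

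Across tissues these genes typically varied less than all genes did. The range between the highest and lowest tissue mean had a median of 0.93 on the log2 scale over the 58 genes, against 1.17 over all 6238 genes with values in every tissue. A range over 2 was found for 5 of the 58 (8.62%) and for 24.0% of all genes. The 5 were ELAVL4 (5.07), RBM24 (4.61), NOVA1 (4.10), CELF2 (2.34) and RBM7 (2.25), and all but RBM7 belong to the families or names listed above as tissue regulators. At the other end stood PRPF6 of the tri-snRNP (0.06), RBM15B (0.07), SF3A1 (0.14), SRSF10 (0.20) and HNRNPH1 (0.24), by the probe set that stands for each gene. For SRSF10 other probe sets differed from this. One was at 7.86 to 8.72 in brains, 8.90 to 9.91 in hearts and 9.60 to 10.36 in gonads, so no flat level is claimed for that gene. How often the choice of probe set mattered was counted: of the genes not called through the probe set that stands for them, another probe set passed the same test for 7 of 60 in brain against heart, 6 of 38 and 7 of 39 in ovary and testis against brain, 8 of 57 and 14 of 58 against heart, and 2 of 63 (RBM27 and RBM33) between the sexes in gonads, with 0 in brain and in heart. The choice mattered for called genes as well. Of their other probe sets, 11 of 21 and 13 of 25 were also called in ovary and testis against brain. Against heart these were 4 of 6 and 7 of 11, and in brain against heart and between the sexes all were called. None had the opposite direction. These shares over all genes are not given here. The gonads were the tissue with the highest mean for 43 of the 58 genes (74.1%), against 42.5% of all genes, and the brain for 5 (8.62%) against 26.5%.

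**Figure D1:**
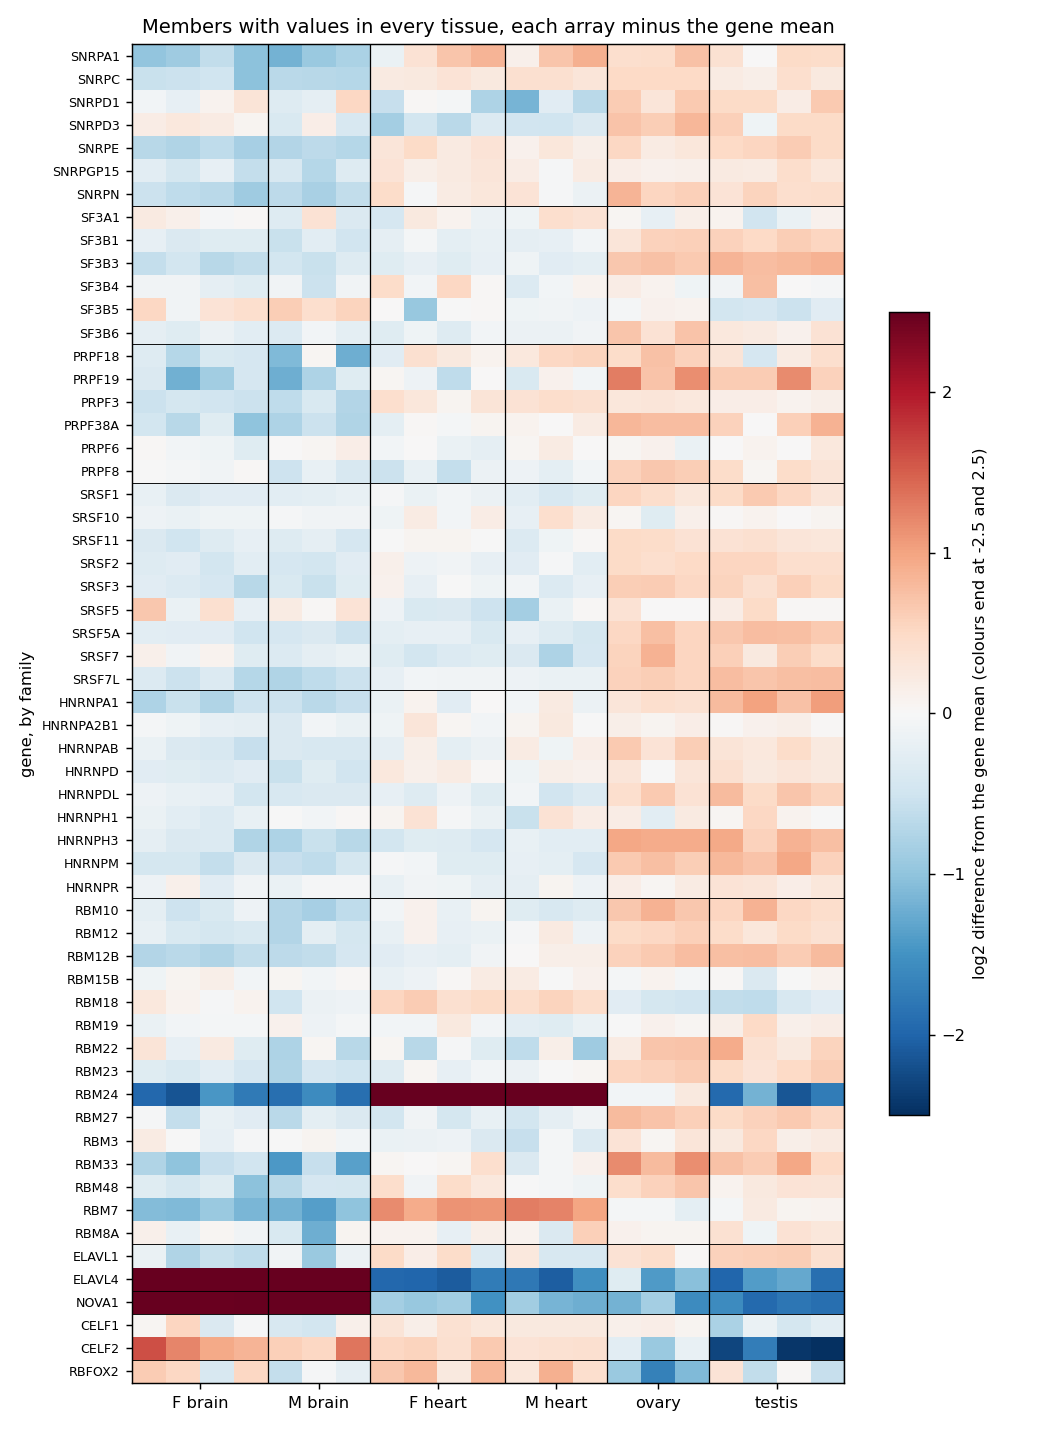
Heat map of the 58 genes with values in every tissue (rows, grouped by family) on the 21 arrays (columns, grouped by sex and tissue), coloured by the log2 difference from the mean of the gene. ELAVL4 and NOVA1 stand out in brain and RBM24 in heart, while most rows of the snRNP, SF3, PRPF, SR and hnRNP families are slightly warmer in ovary and testis than in brain.

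The brain carried high levels of the neuronal regulators. ELAVL4, which binds AU-rich elements and controls RNA stability and splicing in neurons, was at 13.25, 12.89, 13.13 and 13.08 in female brains (embryos 2, 10, 12 and 20) and at 12.96, 13.16 and 13.22 in male brains (embryos 16, 19 and 21). In hearts it was at 7.92, 7.91, 7.82 and 8.15 in females and 8.11, 7.84 and 8.36 in males. Every brain array lay more than 4 log2 units above every heart array. The difference was 5.07 ± 0.15 (SE; 33.7-fold; limma, adjusted p = 3.61e-15). NOVA1, a neuronal factor that binds YCAY clusters in introns and exons, was at 11.88 to 12.10 in female and 11.92 to 12.18 in male brains. Its heart values were 8.57, 8.46, 8.54 and 7.90 in females and 8.55, 8.26 and 8.20 in males, so that here too the tissues were far apart. The difference was 3.66 ± 0.12 (12.7-fold; limma, adjusted p = 1.34e-14). The gonads were near the heart for NOVA1 and between 8.48 and 9.58 (ovary) and 7.91 and 8.61 (testis) for ELAVL4.

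These were the only genes of the 66 tested that were called higher in brain than in heart, which took a fold-change over 2 with an adjusted p under 0.05, whereas 4 were called lower, 9.09% in all. Of all genes tested in this contrast, 39.5% were called, 16.8% higher and 22.7% lower. The heart arrays were above all brain arrays for 21 of the 66 genes (31.8%) and the brain arrays above all heart arrays for 2 (3.03%), against 33.5% and 22.8% of all genes. In the other brain families the differences were smaller. CELF2, a regulator of exon choice in brain and muscle, was at 10.52 to 11.30 in female and 10.19 to 11.01 in male brains and at 10.09 to 10.34 and 10.02 to 10.08 in hearts, a difference of 0.53 ± 0.17. Its second probe set, at 7.09 to 9.07 in brains and 6.79 to 7.48 in hearts, gave 1.03 ± 0.17, past the fold-change of 2, so the size for CELF2 depends on the probe set. CELF1 differed by -0.36 ± 0.13 and RBFOX2 by -0.57 ± 0.20, both under the fold-change of 2. RBFOX1 had values in brain only, at 7.13 to 7.69 in females and 6.83 to 7.53 in males. The probe sets of ELAVL1, the widely expressed member of its family, disagreed. The one that stands for the gene differed by -0.46 ± 0.17 between brain and heart, while another was at 8.37 to 9.16 in brains and 5.58 to 5.99 in hearts, a difference of 2.94 ± 0.14 (limma, adjusted p = 1.94e-12), so no direction is given for that gene.

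In heart the muscle regulators stood out. RBM24, which in mammals promotes muscle-specific exons in the heart, was at 13.66, 13.78, 13.58 and 13.56 in female hearts (embryos 2, 10, 12 and 20) and at 13.70, 13.87 and 13.82 in male hearts. In brains it was at 8.95, 8.76, 9.46 and 9.15 in females and 9.03, 9.35 and 9.03 in males. Embryo 12, the brain with the highest value of the heart muscle gene, had the highest of them. Embryo 2, which came next for that gene, was among the lowest, at 8.95. The part of heart tissue in the brain values was not tested. The tissues did not overlap, and brain minus heart was -4.61 ± 0.14 (24.5-fold; limma, adjusted p = 2.33e-15). RBM38, its close relative, which in mammals is induced by p53, was at 13.39, 13.21, 13.36 and 13.31 in female and 13.41, 13.32 and 13.08 in male hearts. In brains it was at 9.59, 9.91, 9.61 and 9.10 in females and 9.19, 9.53 and 9.82 in males, a difference of -3.76 ± 0.13 (13.6-fold; limma, adjusted p = 1.39e-11). A second probe set of RBM38 gave -4.41 ± 0.25. RBM20, the splicing repressor of titin exons in mammals, had values in heart only, at 10.61, 10.60, 10.59 and 10.46 in females and 10.56, 10.37 and 10.66 in males. The hearts of both sexes overlapped for RBM20, and its level in brain and gonads is unknown here.

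The remaining genes called lower in brain than in heart were RBM7 and SNRPA1. RBM7, a subunit of the nuclear exosome targeting complex, was at 8.09 to 8.29 in female and 7.85 to 8.23 in male brains and at 10.15 to 10.41 and 10.22 to 10.50 in hearts. The difference was -2.25 ± 0.08 (4.75-fold; limma, adjusted p = 3.39e-14), and a second probe set gave -2.17 ± 0.09. The gonads lay between them, at 8.98 to 9.18 in ovaries and 9.18 to 9.45 in testes, so that the 3 tissues did not overlap. SNRPA1, the U2 snRNP protein A', was at 8.57 to 8.98 and 8.41 to 8.81 in female and male brains and at 9.43 to 10.44 and 9.72 to 10.48 in hearts, a difference of -1.42 ± 0.16 (2.68-fold; limma, adjusted p = 1.59e-07). These 6 calls of brain against heart held under each alternative run.

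**Figure D2:**
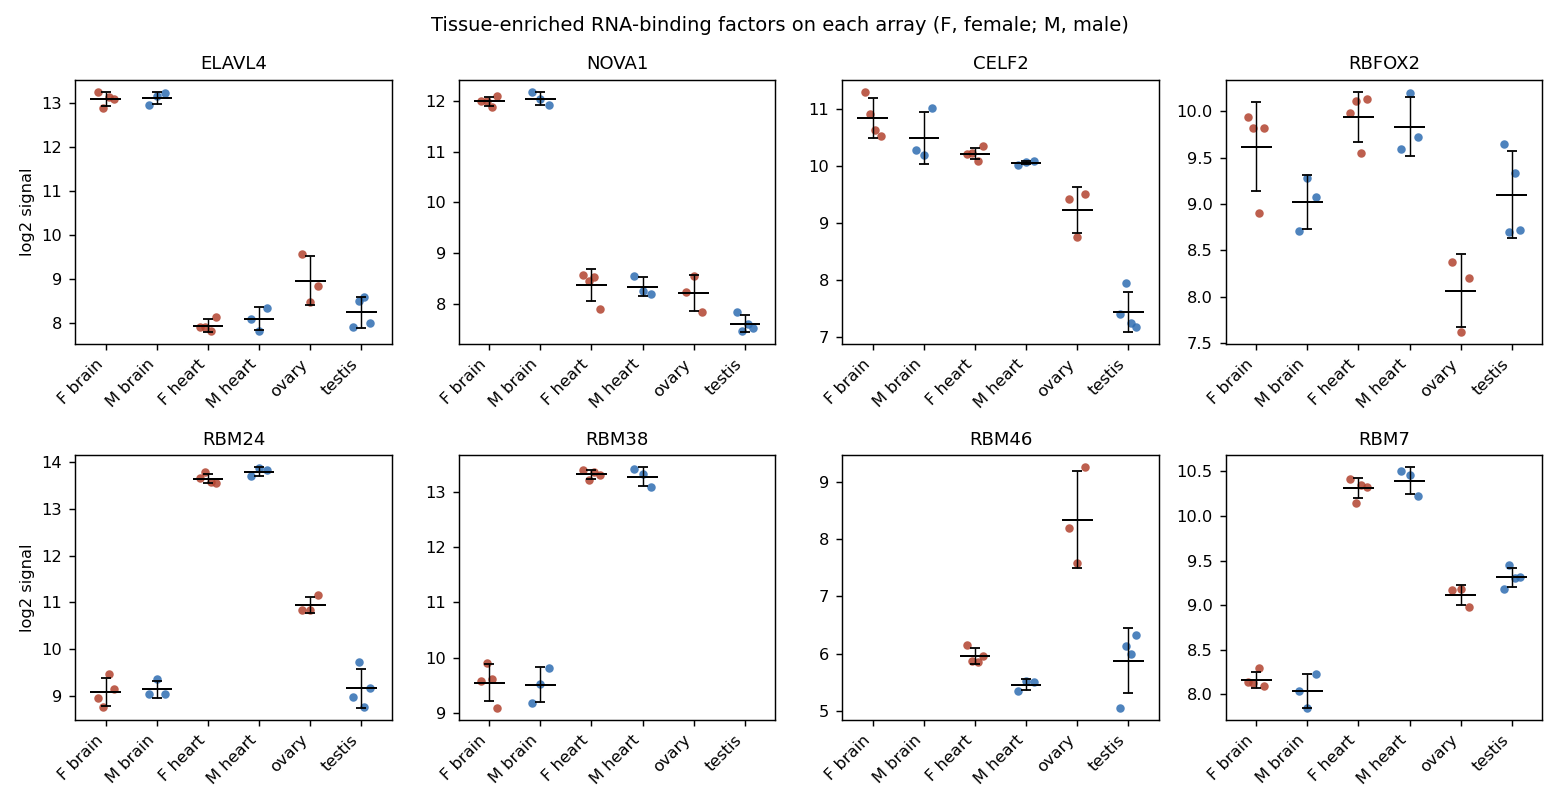
Log2 signal (vertical axes, a scale for each gene) of 8 regulators on each array, in 6 groups of sex and tissue, with points for arrays, bars for means and whiskers for SD; a gap means that the probe set has no values in that tissue. ELAVL4 and NOVA1 are high in brain, RBM24, RBM38 and RBM7 in heart, and RBM24, RBM46 and CELF2 are higher in ovary than in testis.

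The gonads were compared with the soma within each sex. The kit used to extract gonad RNA differed from that for the somatic tissues, so that kit and tissue cannot be told apart in these contrasts. In bulk tissue a change in the share of a cell type and a change of RNA per cell cannot be told apart either. Against brain, general splicing factors were mostly higher in gonads. In ovary against female brain, 18 of 60 genes were called higher and 4 lower (36.7%), against 23.6% and 15.8% of all genes (39.4% in all). In testis against male brain, 17 of 60 were called higher and 4 lower (35.0%), against 24.1% and 16.8% of all genes (40.9% in all). The share called was thus not above that of all genes, and the direction was the side to which the genes leaned: 50 of the 60 had a positive difference in each contrast (83.3%), against 59.5% of all genes in ovary and 59.0% in testis. The median difference was 0.75 in ovary and 0.73 in testis, against 0.25 and 0.24 over all genes. All ovaries were above all female brains for 39 genes and below them for 5 (65.0% and 8.33%, against 43.5% and 26.7% of all genes), and all testes were above all male brains for 40 and below them for 5 (66.7% and 8.33%, against 42.0% and 27.1%). Centring every array on its median moved the median of all genes by -0.20 in ovary and -0.21 in testis against brain, the medians of the splicing factors became 0.55 and 0.52, and the calls became 9 higher and 4 lower in ovary and 12 higher and 5 lower in testis. Among the genes named here, centring ended the calls of HNRNPA1, HNRNPM, RBM10, SNRPC and SRSF7L in ovary (0.82 to 0.96) and of PRPF38A, SNRPN and SRSF5A in testis (0.92 to 0.98), with no change of direction.

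All 8 snRNP genes, all 9 hnRNP genes and all 6 PRPF genes tested were higher in gonad than in brain by their point estimates in each sex, with family medians of 0.80, 0.72 and 0.91 in females and 0.86, 0.75 and 0.80 in males. Of the snRNP genes 4 were called in females and 3 in males, of the hnRNP genes 3 and 3, and of the PRPF genes 3 and 2. Of the 9 SR genes 2 and 2 were called, with medians of 0.78 and 0.73, and of the 6 SF3 genes 1 and 1, with medians of 0.51 and 0.43. No gene of these 5 families was called lower in gonad than in brain. Both sexes shared 13 of the calls of higher level, 72.2% of those in females and 76.5% of those in males. The female and male contrasts have no array in common. The shared part over all genes is not given here, so the overlap is not read as particular to these genes. The genes called in both were HNRNPA1, HNRNPH3, HNRNPM, PRPF19, PRPF38A, RBM10, RBM12B, RBM33, SF3B3, SNRPA1, SNRPE, SNRPN and SRSF7L.

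HNRNPH3, an hnRNP of the H and F group that binds G-rich runs, was at 12.63, 12.59 and 12.60 in ovaries (embryos 2, 12 and 20) and at 12.62, 12.24, 12.54 and 12.43 in testes (embryos 9, 16, 19 and 21). In brains it was at 11.44, 11.30, 11.32 and 10.92 in females and 10.90, 11.12 and 10.97 in males, below every gonad. The difference was 1.36 ± 0.12 in females and 1.46 ± 0.12 in males (limma, adjusted p = 1.7e-08 and 6.32e-09). SF3B3, a large subunit of SF3B, was at 10.32, 10.37 and 10.30 in ovaries and 10.49, 10.42, 10.45 and 10.51 in testes, against 8.94 to 9.18 in female and 9.08 to 9.32 in male brains. The difference was 1.28 ± 0.09 and 1.27 ± 0.09 (limma, adjusted p = 1.01e-09 and 9.61e-10), and both other probe sets of SF3B3 with brain values were called in the same direction in both sexes. PRPF19, the ubiquitin ligase of the Prp19 complex, was at 8.63, 8.06 and 8.50 in ovaries and 7.99, 7.99, 8.53 and 7.93 in testes, and at 6.15 to 6.98 in female and 6.13 to 7.05 in male brains. It differed by 1.76 ± 0.25 and 1.53 ± 0.25 (limma, adjusted p = 6.62e-06 and 3.06e-05).

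RBM33, a little-studied RNA-binding protein, was at 7.96, 7.57 and 7.94 in ovaries and 7.50, 7.42, 7.75 and 7.28 in testes, against 5.77 to 6.29 in female and 5.34 to 6.21 in male brains. The differences were 1.75 ± 0.20 and 1.83 ± 0.20 (limma, adjusted p = 4.89e-07 and 2.62e-07), and the mean of its probe sets gave 1.12 in females and 0.95 in males, the latter under the fold-change of 2. HNRNPA1, an hnRNP that represses exons, was at 12.91, 13.02 and 12.97 in ovaries and 13.39, 13.60, 13.34 and 13.65 in testes, against 11.83 to 12.09 in female and 11.93 to 12.07 in male brains. The difference from brain was 1.01 ± 0.12 in females and 1.48 ± 0.12 in males (limma, adjusted p = 9.33e-07 and 6.54e-09). The female value is at the threshold, and it was 0.999 without embryo 2 and 0.955 without embryo 12, both under a fold-change of 2, and as the mean of the probe sets of the gene the values were 0.49 in females and 0.94 in males, so that both calls were lost. The same held for RBM10, an X-linked splicing repressor in mammals, with 1.05 ± 0.12 in females (0.99 without embryo 10, 0.97 without embryo 12 and 0.99 with the ovary of embryo 20 alone) and 1.33 ± 0.12 in males, and with 0.89 and 0.94 as the mean of its probe sets, where both calls were lost. The probe sets of RBM3, which is induced by cold in mammals, disagreed in size. The one that stands for the gene was at 13.51 to 13.92 in brains, 13.14 to 13.66 in hearts and 13.77 to 14.23 in gonads. Another was at 10.72 to 11.39 in brains, 11.33 to 11.99 in hearts and 12.69 to 13.01 in gonads, with differences from brain of 1.86 ± 0.16 in ovary and 1.95 ± 0.16 in testis, and the remaining one gave 1.79 ± 0.17 and 1.92 ± 0.17.

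The genes called lower in gonads than in brain were tissue regulators. ELAVL4 was lower by 4.12 ± 0.22 log2 units in ovaries and by 4.85 ± 0.22 in testes, and NOVA1 by 3.78 ± 0.17 and 4.43 ± 0.17. CELF2 was at 9.42, 8.75 and 9.50 in ovaries and at 7.39, 7.95, 7.24 and 7.17 in testes, and differed from brain by -1.62 ± 0.24 and -3.05 ± 0.24 (limma, adjusted p = 9.27e-06 and 2.86e-09). RBFOX2 was called lower in ovary, by -1.56 ± 0.28 (limma, adjusted p = 0.000103), while testis minus male brain was 0.08 ± 0.28. ELAVL2, a Hu protein of neurons that is also made in the germ line, was called lower in testis, by -1.12 ± 0.22 (limma, adjusted p = 0.000471), with -0.98 ± 0.22 as the value without embryo 9, under the fold-change of 2, and -0.74 as the mean of its probe sets, where the call was also lost. In ovary the difference of ELAVL2 was -0.30 ± 0.22.

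**Figure D3:**
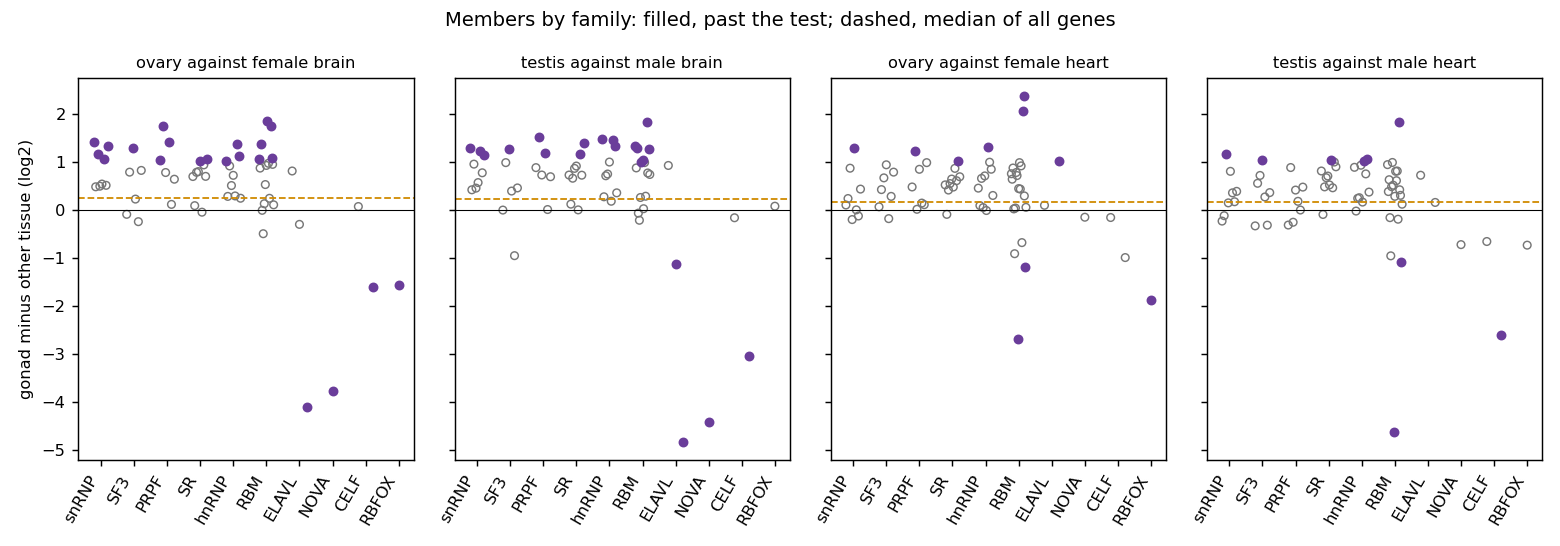
Difference between gonad and another tissue of the same sex (vertical axis, log2) for each gene by family, in 4 contrasts; filled points passed the test at a fold-change over 2, open points did not, and the dashed line is the median of all genes. Most snRNP, PRPF, SR and hnRNP points lie above the dashed line in the contrasts with brain, and the ELAVL4, NOVA1 and CELF2 points lie far below 0.

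Against heart the lean to the gonads was weaker. In ovary against female heart, 7 of 67 genes were called higher and 3 lower (14.9%), against 19.6% and 14.5% of all genes (34.1% in all). In testis against male heart, 6 of 67 were called higher and 3 lower (13.4%), against 16.9% and 14.5% (31.4% in all). The medians were 0.44 and 0.39, against 0.17 and 0.16 over all genes. All ovaries were above all female hearts for 39 genes and below them for 7 (58.2% and 10.4%, against 39.7% and 27.2% of all genes), and all testes were above all male hearts for 40 and below them for 8 (59.7% and 11.9%, against 37.5% and 26.9%). With each array centred the calls became 5 higher and 5 lower in ovary and 2 higher and 4 lower in testis, so the balance of the calls depends on the scaling. HNRNPH3 and RBM43 were the genes called higher in both sexes. HNRNPH3 differed by 1.31 ± 0.12 and 1.03 ± 0.12, and the male value was 0.97 without embryo 9, 0.98 without embryo 19 and 0.80 as the mean of its probe sets, each under the fold-change of 2. RBM43 was at 6.77, 7.28 and 7.44 in ovaries and 7.04, 6.62, 7.14 and 7.28 in testes, above all hearts, at 4.60 to 5.55 in females and 5.07 to 5.27 in males. The differences were 2.07 ± 0.23 and 1.84 ± 0.23 (limma, adjusted p = 4.08e-06 and 1.34e-05).

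The genes called higher than heart in 1 sex alone were PRPF19 (1.23 ± 0.25), SNRPD3 of the Sm ring (1.29 ± 0.17), SRSF7 (1.01 ± 0.14), ELAVL4 (1.02 ± 0.22) and RBM46 in ovary, and SNRPD1 (1.16 ± 0.24), HNRNPM (1.05 ± 0.11), SRSF5A (1.04 ± 0.10) and SF3B3 (1.04 ± 0.09) in testis. Whether these differ between the sexes is given only by the interaction below. With centred arrays the calls of SRSF7 (0.87) and ELAVL4 (0.88) in ovary and of HNRNPM (0.93), SRSF5A (0.92), SF3B3 (0.92) and HNRNPH3 (0.90) in testis fell under the fold-change of 2, as did HNRNPM (0.98) and SRSF5A (0.95) in testis with the mean of probe sets. The SRSF7 call was also lost without embryo 10 (0.98), without embryo 12 (0.91) and with the ovary of embryo 20 alone (0.90). The ELAVL4 call was lost without embryo 2 (0.71) and with the ovary of embryo 20 alone (0.90), and the SNRPD1 call without embryo 16 (0.92). RBM24 was lower in gonads than in heart, by 2.70 ± 0.19 log2 units in ovaries and 4.64 ± 0.19 in testes, RBM7 by 1.20 ± 0.11 and 1.09 ± 0.11, RBFOX2 by 1.88 ± 0.28 in ovaries and CELF2 by 2.62 ± 0.24 in testes. A second probe set of RBM38 was at 11.79 to 12.35 in female and 11.55 to 12.30 in male hearts, at 7.91, 7.41 and 7.11 in ovaries and at 4.57, 6.10, 5.24 and 6.19 in testes, so the gonads were far below the heart for this gene as well.

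In the soma the sexes hardly differed. HNRNPKL was the 1 gene called in brain (of 71, 1.41%) and in heart (of 76, 1.32%), which took a fold-change over 1.5 with an adjusted p under 0.05. Of all genes 1.9% were called in brain (1.66% higher and 0.244% lower in males) and 1.95% in heart (1.69% higher and 0.254% lower). Male and female arrays did not overlap for 9 genes in brain, 3 higher and 6 lower in males (4.23% and 8.45%, against 5.72% and 3.53% of all genes), and for 10 in heart, 2 higher and 8 lower (2.63% and 10.5%, against 6.83% and 3.13%). It is W-linked, as are 12 of the genes tested in each tissue, of which 9 were called female-biased in brain and 10 in heart. Without HNRNPKL, the differences between male and female ran from -0.60 to 0.73 in brain and from -0.50 to 0.33 in heart. At an unadjusted p under 0.05 there were 5 genes in each tissue, HNRNPKL and RBM10 among them both times. This is 7.04% of the genes in brain and 6.58% in heart, against 10.5% and 9.49% of all genes. RBM10 was at 11.44 to 11.83 in female and 11.14 to 11.34 in male brains and at 11.78 to 12.07 and 11.56 to 11.66 in hearts, with the female arrays above the male arrays in each tissue for this probe set. Of its 4 other probe sets, 1 separated the sexes in heart and 0 in brain. The differences were -0.41 ± 0.12 and -0.33 ± 0.12, and neither passed the adjustment (limma, adjusted p = 0.139 and 0.283). RBM12B was at 9.58 to 9.77 in female and 9.87 to 10.01 in male hearts, a difference of 0.31 ± 0.09 (limma, adjusted p = 0.135). The median SE of a difference was 0.13 in both tissues.

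HNRNPKL was at 9.93, 9.18, 9.67 and 9.61 in female brains and at 3.76, 4.74 and 4.84 in male brains. In hearts it was at 9.91, 10.07, 9.31 and 9.66 in females and 5.12, 5.09 and 5.02 in males. The sexes were at least 4 log2 units apart in each tissue, with differences of -5.15 ± 0.26 and -4.66 ± 0.26 (limma, adjusted p = 8.29e-08 and 2.29e-07). The values kept for a tissue cover both sexes when either sex passed the filter, and males carry no W chromosome, so whether the male values are above background is unknown here, and the difference is given as measured. Of 3 other probe sets, all were called lower in males in brain and heart. Of these, 2 had gonad values. The 1 drawn in the plot of sex-linked genes was at 9.87, 9.12 and 9.94 in ovaries and at 3.18, 3.07, 3.12 and 3.03 in testes, a difference of -6.54 ± 0.18 (limma, adjusted p = 1.23e-14).

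The Z-linked genes did not pass the test in any tissue with values. ELAVL2 was at 9.91, 10.30, 10.05 and 9.98 in female and 10.40, 10.68 and 10.36 in male brains, so that all male brains lay above all female brains. The difference was 0.42 ± 0.22 (limma, adjusted p = 0.556). Another probe set of ELAVL2 overlapped between the sexes in brain, at 6.44 to 7.13 in females and 5.94 to 7.39 in males. Its remaining probe sets had all male brains above all female brains. In gonads the order of the probe set that stands for ELAVL2 was turned, with 9.40, 9.61 and 10.25 in ovaries and 8.94, 9.45, 9.71 and 9.34 in testes. This was a difference of -0.40 ± 0.22 (limma, adjusted p = 0.19) between overlapping groups. The difference between both contrasts was -0.82 ± 0.31 (limma, adjusted p = 0.0984). CELF4, a CELF protein of neurons, was at 9.32, 8.58, 8.97 and 8.73 in female and 9.96, 8.81 and 10.12 in male brains, a difference of 0.73 ± 0.34 with overlapping groups (limma, adjusted p = 0.537). Another probe set of CELF4 separated the sexes, at 8.62 to 9.03 in females and 9.19 to 9.33 in males, but was not called. The remaining one overlapped. Over all Z-linked genes the median difference was 0.66 in brain and 0.74 in gonads, and 33.2% and 54.9% were called higher in males.

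**Figure D4:**
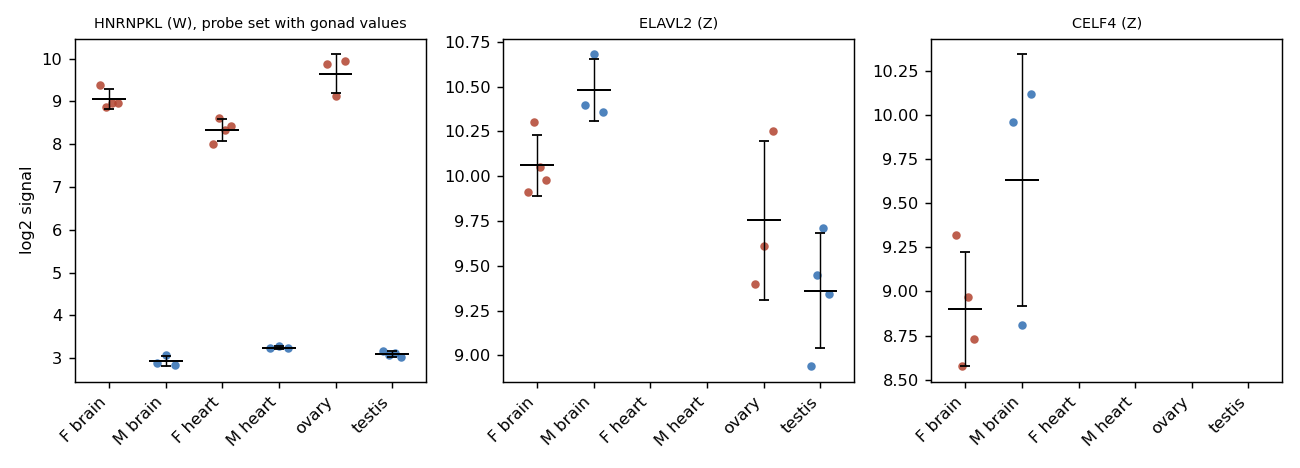
Log2 signal (vertical axes, a scale for each gene) on each array of the W-linked HNRNPKL, through a probe set with values in all tissues, and of the Z-linked ELAVL2 and CELF4, with points for arrays, bars for means and whiskers for SD. HNRNPKL separates the sexes in all tissues. ELAVL2, by the probe set that stands for it, is higher in male brains and overlaps between ovary and testis. Gaps are tissues with no values.

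In gonads 6 of 69 genes were called, 1 higher and 5 lower in testis (8.70%), against 12.6% and 14.2% of all genes (26.8% in all). The arrays of the sexes did not overlap for 20 genes, 7 higher and 13 lower in testis (10.1% and 18.8%, against 20.6% and 21.6% of all genes). The median size of the difference was 0.14 on the log2 scale, against 0.34 over all genes. The general factors were close between ovary and testis. The 10 SR genes ran from -0.18 to 0.17, the 9 snRNP genes from -0.36 to 0.20, the 7 SF3 genes from -0.48 to 0.14, the 7 PRPF genes from -0.46 to 0.09 and the 10 hnRNP genes from -0.22 to 0.53, and none of them was called. HNRNPA1 was the uppermost hnRNP gene, with all testes above all ovaries and a difference of 0.53 ± 0.12 (limma, adjusted p = 0.00282), under the fold-change of 1.5.

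The called genes were regulators. RBM46, a germ cell factor that in mice is needed for meiotic entry, was at 8.19, 7.58 and 9.25 in ovaries (embryos 2, 12 and 20) and at 5.06, 6.14, 5.99 and 6.33 in testes (embryos 9, 16, 19 and 21). The groups did not overlap, and testis minus ovary was -2.46 ± 0.35 (5.51-fold; limma, adjusted p = 0.00014). In hearts it was at 5.86 to 6.15 in females and 5.35 to 5.52 in males, so that testes were near the level of hearts. The germ cell genes DDX4, DAZL, PIWIL1 and TDRD9 (4 of 5 with values) had means of 9.43, 9.06 and 10.4 in ovaries and 7.67, 8.67, 9.03 and 8.70 in testes. Of these only PIWIL1 separated the sexes, at 11.65 to 12.26 in ovaries and 7.95 to 9.61 in testes. DDX4, DAZL and TDRD9 overlapped. The means of the 6 meiosis genes were 8.06 to 9.05 in ovaries and 3.34 to 3.66 in testes. RBM46 and the mean of the germ cell genes had the same order among the 3 ovaries but not among the testes. There RBM46 was highest in embryo 21 and the mean of the germ cell genes in embryo 19. The part of germ cell content in the difference was not tested.

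RBM24 was at 10.84, 10.84 and 11.15 in ovaries and at 8.97, 9.73, 8.77 and 9.17 in testes. All ovaries were above all testes, with a difference of -1.78 ± 0.19 (3.44-fold; limma, adjusted p = 1.59e-06), and a second probe set gave -1.54 ± 0.27. The mean of heart muscle genes (3 of 8 with values) was 3.54 to 4.12 in ovaries and 6.31 to 6.98 in testes. The part of muscle tissue in the RBM24 difference was not tested. CELF2 was at 9.42, 8.75 and 9.50 in ovaries and at 7.39, 7.95, 7.24 and 7.17 in testes, a difference of -1.79 ± 0.24 (3.45-fold; limma, adjusted p = 1.52e-05). Its second probe set was at 6.11, 6.03 and 5.99 in ovaries and 3.25, 3.45, 3.09 and 3.23 in testes, a difference of -2.78 ± 0.24. Whether the testis values of that probe set are above background is unknown here, so this difference is given as measured. The calls of RBM46, RBM24 and CELF2 held under every alternative that kept at least 2 ovaries, and with the single ovary of embryo 20 the differences were -3.37, -1.99 and -2.07.

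RBFOX2 was the 1 gene called higher in testis, at 9.65, 8.70, 9.33 and 8.72 against 8.37, 7.62 and 8.20 in ovaries. The difference was 1.04 ± 0.28 (2.05-fold; limma, adjusted p = 0.00891), and with the single ovary of embryo 20 it was 0.90, a similar size, and was not called. NOVA1 and ELAVL4 were called lower in testis by small differences that depend on single arrays. NOVA1 was at 8.23, 8.56 and 7.85 in ovaries and 7.84, 7.47, 7.61 and 7.53 in testes, -0.60 ± 0.17 (limma, adjusted p = 0.0129). ELAVL4 was at 9.58, 8.48 and 8.85 in ovaries and 7.91, 8.50, 8.61 and 8.01 in testes, which overlap, -0.71 ± 0.22 (limma, adjusted p = 0.0183). With the ovary of embryo 20 alone, where the means of neuron and chromaffin genes were low, the differences were -0.23 for NOVA1 and -0.59 for ELAVL4, and neither was called with that 1 ovary. The NOVA1 call was also lost without embryo 2 (-0.59), 12 (-0.43), 16 (-0.55) or 21 (-0.57), and the ELAVL4 call without embryo 2 (-0.41), 9 (-0.59) or 21 (-0.63). In a fit of ovaries and testes alone ELAVL4 was not called either (limma, adjusted p = 0.113), nor was NOVA1 with array weights (-0.58). The neuron genes had their highest mean in the ovary of embryo 2, as ELAVL4 did, but the orders were not the same. In the ovary of embryo 12, where the mean of the neuron genes came next, ELAVL4 was lowest and NOVA1 highest of the ovaries. The part of neural tissue in these differences was not tested.

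Taking for each gene the highest-signal probe set that has values in gonads raised the number tested from 69 to 77 and the calls from 6 to 10. This choice was made after the blanks were seen, and the share of all genes called under it is not given here. It added HNRNPKL, and RBM38, at 7.91, 7.41 and 7.11 in ovaries against 4.57, 6.10, 5.24 and 6.19 in testes, a difference of -1.95 ± 0.35 (limma, adjusted p = 0.000301). It also added HNRNPU, at 9.86, 10.02 and 9.93 in ovaries and 10.76, 10.68, 10.43 and 10.81 in testes (0.74 ± 0.13; limma, adjusted p = 0.000312), and RBM45, with 0.59 ± 0.18 (limma, adjusted p = 0.0169). HNRNPU and RBM45 were named after their values were seen, and another probe set of HNRNPU, at 9.91 to 10.22 in ovaries and 10.07 to 10.32 in testes, showed overlap of the sexes. RBM24 and RBM38, the pair of relatives that were highest in heart, were thus both lower in testis than in ovary.

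**Figure D5:**
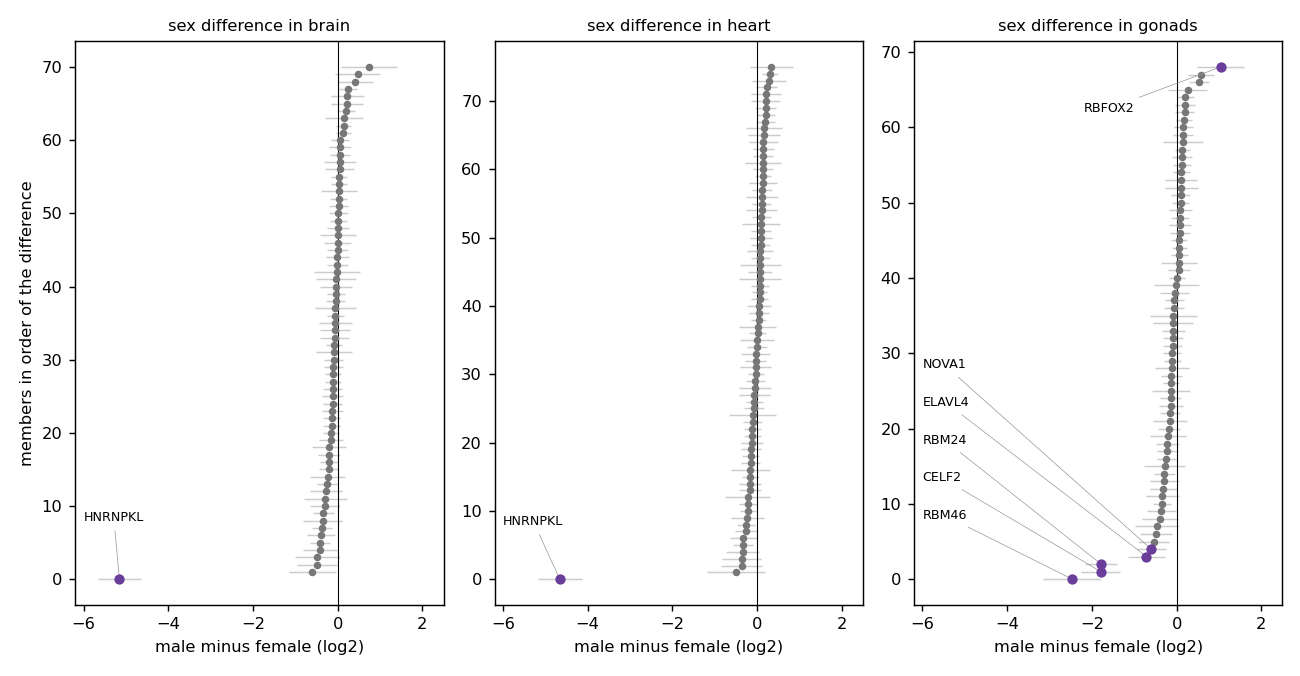
Difference between male and female (horizontal axis, log2; whiskers are 95% intervals) for the genes tested in brain (71), heart (76) and gonads (69), in order of the difference; larger filled points passed the test at a fold-change over 1.5. Only HNRNPKL lies far from 0 in brain and heart, and RBM46, CELF2 and RBM24 leave the others in gonads.

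The sex difference itself was compared between tissues. Between gonads and brain it differed for 3 of 60 genes at an adjusted p under 0.05, 1 higher and 2 lower (5.0%), against 14.9% of all genes (6.83% higher and 8.11% lower). RBM24 differed by -1.84 ± 0.27 (limma, adjusted p = 0.000142), CELF2 by -1.43 ± 0.33 (limma, adjusted p = 0.00643) and RBFOX2 by 1.63 ± 0.40 (limma, adjusted p = 0.00939). RBM24 thus had no detectable sex difference in brain (0.06 ± 0.19) and a lower level in testis, and RBFOX2 had -0.60 ± 0.28 in brain and 1.04 ± 0.28 in gonads. The CELF2 call was lost without embryo 20 (-1.19; limma, adjusted p = 0.0516) and without embryo 21 (-1.09; limma, adjusted p = 0.0532), and that of RBFOX2 with the single ovary of embryo 20, at a similar size (1.501). Between gonads and heart it differed for 3 of 67 genes, all lower (4.48%), against 16.0% of all genes (6.46% higher and 9.52% lower). They were RBM46 with -1.96 ± 0.49 (limma, adjusted p = 0.0174), RBM24 with -1.94 ± 0.27 (limma, adjusted p = 0.000104) and CELF2 with -1.63 ± 0.33 (limma, adjusted p = 0.0028). The RBM46 call was lost without embryo 19 (-1.97; limma, adjusted p = 0.0554). With the embryo as a block the count became 6, 2 higher and 4 lower. Between heart and brain no gene of 66 differed by limma, nor in any other setting run, against 0.0293% of all genes (0.0146% in each direction), and 5 had an unadjusted p under 0.05 (7.58%, against 7.04% of all genes).

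Related genes outside these families were read from lists written with the design. Of 56 further genes of the core spliceosome, 45 had a probe set. Of those tested, 9 of 39 were called higher in ovary than in female brain, 8 of 39 higher in testis than in male brain, 4 of 43 and 3 of 43 higher than in heart, and none lower. These are 23.1%, 20.5%, 9.30% and 6.98%, against 23.6%, 24.1%, 19.6% and 16.9% of all genes, so the share called higher was not above that of all genes. Medians were 0.54, 0.67, 0.28 and 0.48. LSM8, of the ring on U6, had the largest difference from female brain among the 9, at 1.52 ± 0.22. Between the sexes the only core gene called was the Z-linked CWC27, a cyclophilin of the spliceosome, with 1.05 ± 0.17 in brain, 0.86 ± 0.17 in heart and 0.97 ± 0.17 in gonads (limma, adjusted p = 0.000957, 0.0071 and 0.000197).

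Of 29 further tissue regulators, 20 had a probe set. In brain against heart 4 of 15 were called higher and 5 lower (26.7% and 33.3%, against 16.8% and 22.7% of all genes). RBPMS2, known from heart and smooth muscle, was at 7.90 ± 0.29 (SD, n = 4) in female brains and 13.51 ± 0.08 (n = 4) in female hearts, with brain minus heart at -5.65 ± 0.13 over both sexes (limma, adjusted p = 1.66e-16), and RBPMS differed by -3.88 ± 0.15. PTBP1, which represses neuronal exons, was lower in brain than in heart (2.01-fold), whereas its neuronal paralogue PTBP2 was higher by 1.37 ± 0.13. PTBP1 was higher in gonads than in brain, by 2.46 ± 0.12 in ovary and 2.74 ± 0.12 in testis. In gonads 4 of 17 were called higher in testis and 1 lower (23.5% and 5.88%, against 12.6% and 14.2% of all genes). MBNL2 (1.26 ± 0.20), MSI1 (1.24 ± 0.14) and RBPMS2 (1.15 ± 0.19) were higher, and the Z-linked PTBP3 averaged 10.91 ± 0.40 over the 3 ovaries and 8.21 ± 0.50 over the 4 testes (SD), a difference of -2.70 ± 0.31 (limma, adjusted p = 0.000345). For the genes of both lists the alternatives were not examined, the ovary of embryo 20 alone among them.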

How the data were processed

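RNA of brain, heart and left gonad was hybridised to 21 Affymetrix Chicken Genome arrays, each a separate sample of 1 of 8 embryos. For heart and gonads the labels give a human array, whereas the probe set names are of the chicken array. The authors deposited log2 signals, background-corrected by GCRMA, quantile-normalized and summarized by median polish in R 2.4.1 per the labels, and kept in each tissue only probe sets with MAS5 present calls. Deposited values ran from 1.68 to 16.2. Probe sets with values numbered 16113 in brain, 16499 in gonads and 15282 in heart. GEO's platform annotation gave 1 gene for 16197 probe sets, several for 85 and none for 3592, and symbols and chromosomes were taken through it. 1 gene whose symbol fits the pattern is not reported here.

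Groups of sex and tissue were fitted together with limma 3.58.1 (R 4.3.3), without a block, and p-values were adjusted by Benjamini-Hochberg over all probe sets with values in the groups of a contrast. A difference is a difference of mean log2 signals, with its SE from the fit. A sex difference (male minus female) was called at an adjusted p under 0.05 and a fold-change over 1.5, a tissue difference at a fold-change over 2, and a sex difference between tissues at any size. Arrays give no read depth, and their number limits the precision. Named were all CELF, RBFOX, NOVA and ELAVL genes, RBM20, RBM24, RBM38, RBM46 and RBM47 where present, all sex-linked genes, up to 8 called genes in each direction and contrast whose arrays did not overlap, and the genes with the highest and lowest mean of each family (41 genes). Genes with level tissue means, RBM10 and RBM12B in the soma, HNRNPU and RBM45 were named after their values were seen. The gene groups and lists were chosen with earlier results of these data known. The alternatives were a stricter filter (a group mean of at least 6), the compared groups alone, the embryo as a block, array weights, centred arrays, the mean of probe sets, each embryo left out and another fold-change. Embryo numbers come from the titles and pair the tissues of an embryo: all 19 pairs of tissues deviated together from their group means, with r from 0.16 to 0.46. Tables and plots were made with Python 3.11.15, pandas 2.3.3, numpy 2.4.6 and matplotlib 3.10.9, and the fit was tested on simulated data.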

Additional observations from a re-analysis of the deposited data

Results flagged for a closer look

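Among 107 groups of 4 arrays, 14 had 1 array farther from the others than Dixon's critical value of 0.829 allows, and chance alone gives about 1 in 20. The groups of 4 arrays were female brains, female hearts and testes, so female embryos were tested in more tissues than male embryos. Ovaries, male brains and male hearts were not tested. Within this limit, embryo 20 was the outlying array most often. In female hearts it had NOVA1 at 7.90 (others 8.46 to 8.57), RBM33 at 7.20 (6.78 to 6.83), SRSF5A at 12.12 (12.27 to 12.30) and RBM20 at 10.46 (10.59 to 10.61), and in female brains SNRPC at 10.72 (11.18 to 11.25) and SRSF5A at 12.01 (12.22 to 12.24). In other female arrays, RBFOX2 was at 8.90 in the brain of embryo 12 (9.82 to 9.94), SRSF7L at 12.35 in the heart of embryo 2 (12.46 to 12.48), SRSF6 at 13.36 in the heart of embryo 10 (13.11 to 13.15) and PRPF4B at 11.39 in the heart of embryo 12 (11.65 to 11.70). In testes, SF3B4 was at 6.27 in embryo 16 (5.44 to 5.52), SNRPD3 at 11.59 in embryo 16 (12.17 to 12.29), SNRPB2 at 4.00 in embryo 19 (4.58 to 4.68) and PRPF19 at 8.53 in embryo 19 (7.93 to 7.99).

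The sex difference itself differed between tissues for 4 genes by an interaction contrast in limma. Between gonads and brain it differed for RBM24 (-1.84), CELF2 (-1.43) and RBFOX2 (1.63), and between gonads and heart for RBM24 (-1.94), CELF2 (-1.63) and RBM46 (-1.96).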

How the results depend on the processing

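Of 75 calls of named genes, 50 held in every alternative, 25 were lost in at least 1, and none of 1090 alternative values changed direction. Many of these values could not change, as the stricter filter or an embryo left out of other groups keeps the means compared. The calls had also been chosen by adjusted p and size. The lack of changes in direction is therefore not read as support for them. Centred arrays ended 14 of these calls, the mean of the probe sets of a gene 9 and the ovary of embryo 20 alone, chosen after seeing the data and with its spread taken from the other groups, 7. With centred arrays the genes called in ovary against female brain fell to 13 from 22. With the mean of the probe sets of a gene the sex difference differed from brain for 7 genes and from heart for 7, instead of 3 and 3. With the embryo as a replicate block the sex difference of gonads against heart differed for 6 genes, and the block ended no call of a named gene. At a fold-change over 1.5 the tissue calls became 19 for brain against heart, 38 for ovary and 41 for testis against brain, and 34 for ovary and 31 for testis against heart, instead of 6, 22, 21, 10 and 9. The genes tested in these contrasts numbered 66, 60, 60, 67 and 67. With the highest-signal probe set that has values in the tissues compared, chosen after seeing the data, 10 genes were called between the sexes in gonads, and the sex difference of gonads differed from brain for 7 and from heart for 6. With each embryo left out in turn, the counts ran from 4 to 7 for the sexes in gonads, 6 to 8 for brain against heart, 20 to 22 and 20 to 24 for ovary and testis against brain, 10 to 13 and 8 to 12 against heart, 2 to 4 and 3 to 4 for the sex difference of gonads against brain and heart, 1 to 1 in brain and in heart, and 0 to 0 for heart against brain. The shares of all genes called under these alternatives are not given here, so none of these counts is read as an excess. Groups hold 3 or 4 arrays, and a tissue left blank in the deposited table has no value here.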
